A study of Mus musculus with 4 samples.

Results

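A set of 9 genes that build or regulate chromatin was followed through the variant lists of 2 mouse tumour cell lines: the cohesin genes Stag2 and Smc1a, the bromodomain acetyltransferase gene Crebbp, the corepressor genes Ncor1 and Hdac1, the remodeller genes Atrx and Chd8, the histone demethylase gene Kdm6a, and the Polycomb-linked gene Asxl1. A variant belonged to the set when the gene symbol of its annotation was a member of these 9. This gave 34 of 11806 listed variants, 17 of 6361 in MBT2 and 17 of 5445 in LM8. Every member had at least 1 variant in a list, with 6 of 9 genes listed in MBT2 and 8 of 9 in LM8. Of the 34 variants, 29 were distinct and 5 stood in both lists.

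Cohesin is a ring of proteins that holds sister chromatids together and extrudes loops of DNA. Smc1a is part of the ring itself and Stag2 is a subunit that binds it. Crebbp acetylates histones at enhancers and promoters and binds acetylated lysine through its bromodomain. Ncor1 bridges unliganded nuclear receptors to histone deacetylases, and Hdac1 is a deacetylase of several repressor complexes. Atrx, with its partner Daxx, places a histone variant at repeats and telomeres, and Chd8 is a remodeller with chromodomains. Kdm6a removes a repressive methyl mark from histone H3, and Asxl1 is the partner of a histone H2A deubiquitinase. Human bladder tumours often carry mutations of STAG2, KDM6A, CREBBP and NCOR1, and human osteosarcomas often lose ATRX.

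MBT2, here with the clone label 63, comes from a bladder cancer, and LM8 comes from an osteosarcoma. Both are syngeneic with C3H/HeN mice and were untreated. MBT2 was kept in RPMI-1640 with 10% serum and LM8 in MEM with 10% serum and 24 mM HEPES, so medium and line cannot be told apart. Each line gave 2 directional poly(A) RNA libraries read from both fragment ends over 75 bases. Whether the 2 libraries of a line came from different cultures is not stated, so differences between them may be technical. The lists hold no expression levels, and the identity of the lines could not be checked by them. Of marker genes, 0 of 14 urothelial and epithelial genes had a listed variant in either line, 0 of 8 immune and endothelial genes had one in either line, and 1 of 12 osteoblast and mesenchymal genes had one in MBT2, against 3 of 12 in LM8. At member sites the median depth was 115 and 125 reads in the MBT2 libraries and 110 and 97 in the LM8 libraries, against 68 and 73 and 62 and 61 over all listed sites. Each share below is the alternative reads among reference plus alternative reads, with an exact Clopper-Pearson 95% interval over both libraries. These intervals cover counting error only, because amplified reads are not independent molecules. At 32 of the 34 sites, all reads of recorded orientation came from the gene's own strand, and the lowest share on that strand was 97.3%.

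MBT2 carried substitutions of Crebbp, Ncor1 and Asxl1 at shares of 28.6% to 34.9%, while no member substitution of LM8 exceeded 11.5%. The LM8 list did hold substitutions of other genes between 28.6% and 34.9%. Over all listed substitutions the median share was 6.25% in MBT2 and 5.88% in LM8. How many substitutions of any gene reached such shares was not counted in either line. Whether the contrast between the lines is particular to the members was therefore not tested. MBT2 had 4 substitutions, 6 single-base insertions, 3 longer insertions, 1 single-base deletion and 3 deletions of 21 or more bases. LM8 had 6, 6, 2, 0 and 3 of these kinds. All 34 variants had alternative reads in both libraries of their line, which were called together. The same count was not made over all listed variants. The shares fell into 3 ranges: 23 variants stood at 1.10% to 11.8%, 3 MBT2 substitutions at 28.6% to 34.9%, and 8 long deletions and longer insertions at 81.4% to 90.6%. No member variant had a share of 40 to 60%. Across the whole lists, 5 MBT2 variants and 1 LM8 variant of any gene lay between 40 and 60%.

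The substitutions that change a protein were both in MBT2, in Ncor1 and Crebbp. Their reference codons are shown here with the synonymous changes of Asxl1 and Ncor1, because these are the substitutions at higher shares and the pair found in both lines. Each window is 27 bases of the GENCODE M21 transcript in the direction of the RNA, with the changed codon in capitals.
Crebbp codon 1551, GAA in the reference and CAA in the variant: cctaatgtgttgGAAgaaagcattaag
Ncor1 codon 973, TAT in the reference and TGT in the variant: tccactcgacagTATgaaggtccactg
Asxl1 codon 728, CTG in the reference and CTT in the variant: gaagagagctgcCTGttgaagagggtc
Ncor1 codon 320, GAG in the reference and GAA in the variant: atggaagcgtggGAGaaaaaagtggac

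Crebbp carried E1551Q in MBT2 (GRCm39 chromosome 16, position 3909736, exon 28, a G>C change of the RNA). The alternative base stood in 27 of 84 reads of library 1 and 30 of 91 reads of library 2, that is 32.1% and 33.0%. The pooled share was 32.6% (25.7 to 40.1). Codon 1551 of 2441 lies in the part of the protein that holds the acetyltransferase domain. LM8 had no listed Crebbp variant of any kind.

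Ncor1 carried Y973C in MBT2 (chromosome 11, position 62220947, exon 17, A>G in the RNA). The changed base was read 40 times in 115 reads and 41 times in 117 reads, or 34.8% and 35.0%. The pooled share was 34.9% (28.8 to 41.4). The number 973 belongs to a short transcript of 1399 codons, and the same base falls in codon 2027 of 2454 of the long transcript ENSMUST00000018645, to which the other Ncor1 variants are numbered. LM8 had no protein-changing Ncor1 substitution. Against the 721 private missense substitutions of MBT2, where private means that the list of the other line lacks the same position and alleles, 90 had a share at or above that of Ncor1 Y973C and 121 at or above that of Crebbp E1551Q. The median share of the 721 was 6.49%.

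Asxl1 carried a synonymous change of codon 728 in MBT2 (chromosome 2, position 153241632, exon 13, G>T). It was in 14 of 70 reads of library 1 and 28 of 77 reads of library 2, so the libraries stood at 20% and 36.4%, further apart than for the other MBT2 substitutions. Fisher's exact test (two-sided) between the libraries gave p = 0.0302, and 1 after Benjamini-Hochberg adjustment over all MBT2 sites. The pooled share was 28.6% (21.4 to 36.6), and 74 of 317 private synonymous MBT2 substitutions had as high a share or a higher one.

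For Crebbp, Ncor1 and Asxl1 these 3 substitutions also had the caller's lowest qualities against a germline origin in MBT2: 5 for E1551Q, 4 for Y973C and 16 for codon 728 on a phred scale. The other 14 member variants of MBT2 stood at 93. In LM8 the Chd8 substitution described next stood at 5, both Kdm6a insertions at 52 and 27, and the other 14 at 93. The lines had no matched normal sample and only RNA was read. Whether these alleles are mutations of MBT2, alleles of the mouse strain or changes of the RNA was not tested.

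The 6 LM8 substitutions changed no protein and stood at lower shares. The highest of them, in Chd8, was matched or exceeded by 138 of 984 private 3′ UTR substitutions of LM8. Stag2 had a synonymous T>C change of codon 1223 of 1268 (chromosome X, position 41358348, exon 32) in 6 of 245 and 2 of 244 reads, 1.64% pooled (0.709 to 3.20). Stag2 also had a T>C change in the 3′ UTR (position 41365011), 848 bases past the coding end by the annotation, in 4 of 84 and 3 of 82 reads, 4.22% pooled (1.71 to 8.495). The 3′ UTR of Ncor1 had a G>A change (chromosome 11, position 62208504) in 6 of 239 and 3 of 205 reads, 2.03% pooled (0.931 to 3.81). All 3 were rare alleles, with 9 alternative reads or fewer each.

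Atrx had a T>C change in its 3′ UTR (chromosome X, position 104842721) in 4 of 124 and 2 of 116 LM8 reads, 2.50% pooled (0.923 to 5.36). Chd8 had a T>G change in its 3′ UTR (chromosome 14, position 52435637) in 2 of 12 and 1 of 14 reads, 11.5% pooled with a wide interval (2.45 to 30.2). This was the shallowest member site, with 26 reads. Several of these alleles sat near read ends or on reads of 1 direction: the median distance from the read end was 1 base for Atrx, 2 bases for Stag2 codon 1223 and 3 bases for Chd8, against 11 to 20 bases for the 3 MBT2 substitutions at higher shares. All 7 alternative reads at Stag2 position 41365011 were on the reverse strand, and all 6 of Atrx and all 3 of Chd8 were on the forward strand. The part of read position or direction in these calls was not tested.

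**Figure D1:**
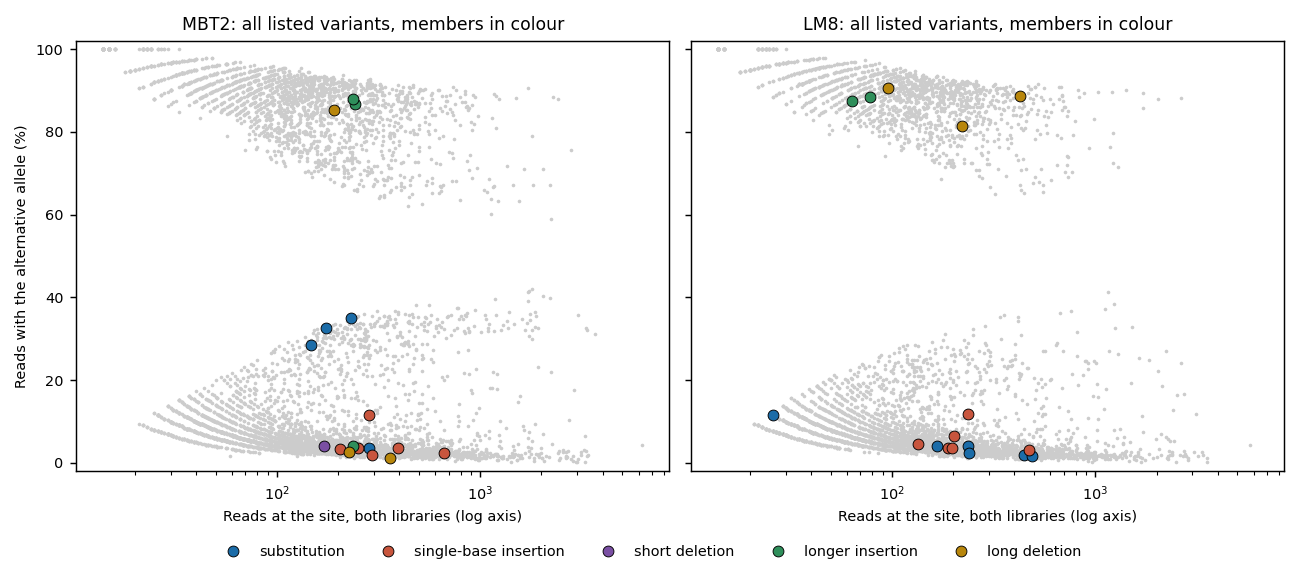
Each grey point is a listed variant of any other gene and each coloured point is a variant of the 9 genes, MBT2 left and LM8 right. The x axis is the number of reads at the site in both libraries (log scale) and the y axis is the percent with the alternative allele. The blue MBT2 points near 30% are Asxl1, Crebbp and Ncor1, and all blue LM8 points lie at or below 11.5%. In both lines the band from 40 to 60% holds nearly no variant.

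Every single-base insertion or deletion of the members lay in a run of A in the RNA. There were 13 such records, 7 in MBT2 and 6 in LM8, at 10 distinct sites, with 9 records in runs of 6 A and 4 in runs of 7 A. Of these, 11 were frameshifts in Stag2, Ncor1, Hdac1, Atrx and Chd8 at 9 distinct sites. The runs are shown with 10 reference bases on each side, in capitals and in the direction of the RNA.
Stag2 codon 1075: tgtacggagtAAAAAAtcaaaaccat
Ncor1 codon 526: gataaagcagAAAAAAcagagaaaaa
Ncor1 codon 322: agcgtgggagAAAAAAgtggacagaa
Hdac1 codon 439: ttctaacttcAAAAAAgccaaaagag
Atrx codon 837: aaaacagggcAAAAAAgtagtggata
Atrx codon 1028: aaagaaaggcAAAAAAtggaaagata
Atrx codon 1166: tacgaaggagAAAAAAAgaaactcctt
Atrx codon 1282: tggaggagggAAAAAAAgaattgggaa
Chd8 codon 1841: tcgcctggacAAAAAAAcagatgaaag

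Stag2 had its insertion in the run at codon 1075 in MBT2 (chromosome X, position 41351698), in 9 of 335 and 7 of 329 reads, 2.41% pooled (1.38 to 3.88). A second insertion lay in a run of 6 A in the 3′ UTR (position 41365658) and was listed in both lines. It was in 7 of 189 and 7 of 203 MBT2 reads and in 2 of 92 and 5 of 97 LM8 reads, 3.57% and 3.70% pooled.

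Among single-base insertions of the members, Ncor1 had the highest shares, in the run at codon 322 (chromosome 11, position 62289209), and again in both lines. The insertion was in 19 of 141 and 14 of 143 MBT2 reads (11.6% pooled, 8.13 to 15.9) and in 14 of 115 and 14 of 123 LM8 reads (11.8% pooled, 7.96 to 16.6). The synonymous change of codon 320 (position 62289216) is the base directly before this run: it lengthens the run to 8 A, and the insertion lengthens it to 7. That substitution was in 3 of 141 and 7 of 143 MBT2 reads (3.52% pooled) and in 4 of 115 and 6 of 123 LM8 reads (4.20% pooled). In LM8 the caller placed the 2 alleles on different haplotypes. An insertion at codon 526 (position 62275604) was private to MBT2, in 7 of 115 and 2 of 136 reads, 3.59% pooled (1.65 to 6.70).

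Hdac1 was listed in LM8 only, with an insertion at codon 439 of 482 (chromosome 4, position 129411203). It was in 6 of 225 and 9 of 248 reads, 3.17% pooled (1.79 to 5.18). Of its 15 alternative reads 14 were on the forward strand, and the median distance from the read end was 2 bases.

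Atrx held the most run changes of any member, 3 in MBT2 and 2 in LM8. At codon 1166 (chromosome X, position 104918342) both lines had the insertion, in 4 of 96 and 3 of 108 MBT2 reads and in 4 of 105 and 3 of 92 LM8 reads, 3.43% and 3.55% pooled. MBT2 also had an insertion at codon 1028 (position 104918754) in 3 of 156 and 3 of 139 reads, 2.03% pooled. The only single-base deletion of a member was at codon 1282 in MBT2 (position 104900126), in 3 of 80 and 4 of 90 reads, 4.12% pooled. LM8 had an insertion at codon 837 (position 104919327) in 7 of 113 and 6 of 90 reads, 6.40% pooled (3.45 to 10.7).

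Chd8 had its insertion at codon 1841 in LM8 (chromosome 14, position 52443136), in 1 of 70 and 5 of 64 reads, 4.48% pooled (1.66 to 9.49). In the reference transcripts, each of the 11 frameshifts meets a stop codon within 5 to 23 codons, counted with the first codon of its run as 1. The altered codons lie 13.1% (Ncor1 codon 322) to 91.1% (Hdac1) of the way along the protein.

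The same kind of site held most single-base insertions of the lists. Runs of 6 or 7 bases held 91.4% of 767 single-base insertions in MBT2 and 91.5% of 638 in LM8, and the run was of A in the RNA in 69.9% and 69.4% of those with a known strand. Only 6 insertions in each list lay in runs of 8 or more bases. The median share was 4.03% in MBT2 and 4.16% in LM8, close to those of the members. Per the file headers, the caller's filter for polymerase slippage applied from a run length of 8. Whether the member insertions are changes of the genome, of the RNA or of the library was not tested.

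**Figure D2:**
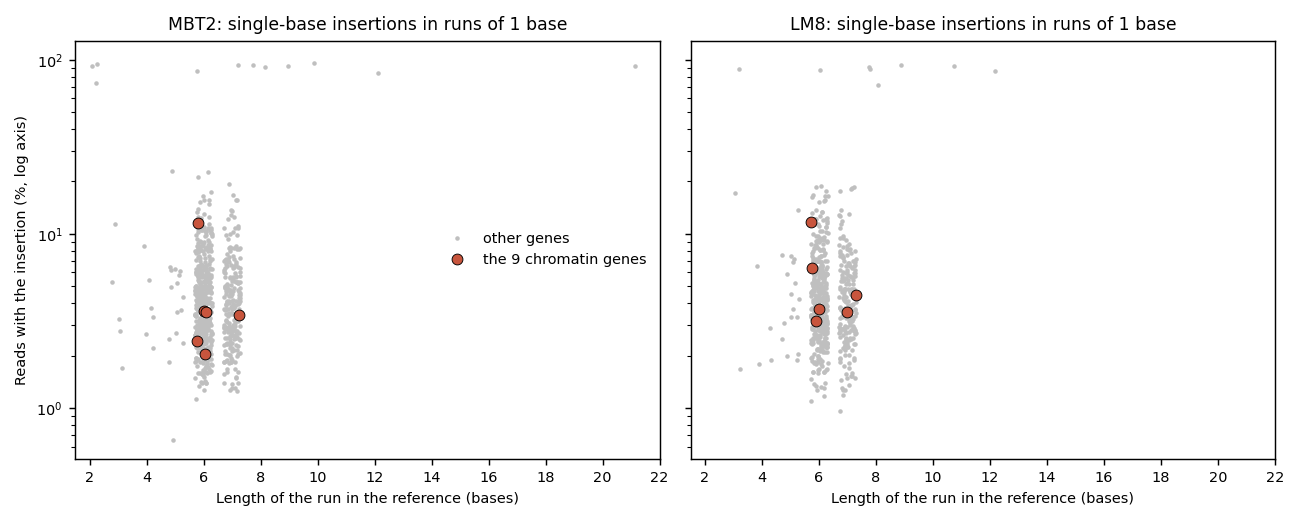
Single-base insertions by the length of the reference run (x axis, with a small horizontal spread for visibility) and by the percent of reads that carry them (y axis, log scale), MBT2 left and LM8 right. Grey points are other genes and red points are the members. The members lie in runs of 6 and 7 bases at 2.03% to 11.8%, within the cloud of the other genes, and few insertions lie in runs of 8 or more.

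The 8 member variants at 81.4% to 90.6% were long deletions or insertions of many bases, and their letters match spliced exons. Those of Asxl1, Smc1a, Chd8 and Kdm6a are given next, compared with exon ends in the reference transcripts. Lengths and letters were compared, and no coordinates, since the reference transcripts belong to build GRCm38.

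Asxl1 had a deletion of 75 bases in both lines (chromosome 2, position 153233568), in 64 of 78 and 98 of 112 MBT2 reads (85.3% pooled, 79.4 to 90.0) and in 89 of 110 and 91 of 111 LM8 reads (81.4% pooled, 75.7 to 86.3). The deleted bases have the length of the intron between exons 5 and 6 of ENSMUST00000109790, begin with GT and end with AG after a shift of 1 base, and follow the last letters of exon 5. LM8 also had a deletion of 122 bases (position 153235418) in 53 of 60 and 34 of 36 reads, 90.6% pooled (82.9 to 95.6). It fits the intron between exons 8 and 9 by the same marks, here after a shift of 3 bases. The deleted bases stand within 1 reference transcript of the gene. The annotation called these deletions upstream or downstream of shorter transcripts.

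A second Asxl1 deletion, of 94 bases, was private to MBT2 and rare (position 153233550). It was in 3 of 91 and 3 of 135 reads, 2.65% pooled (0.980 to 5.69), and all 6 reads were on the forward strand. It ends at the same AG as the 75-base deletion and starts 19 bases earlier, inside exon 5, with the letters GTGAGT, where the 75-base deletion has GTAAGT after its shift of 1 base. Its 6 reads are 3.57% of the 168 reads with either deletion, and the caller placed the 2 on different haplotypes. The gene has an intron of 94 bases, but this lies between exons 9 and 10, and its exon end does not match the deletion. None of the reference transcripts has the joint that the longer deletion makes. The 19 exon bases it removes are shown with the donor letters in capitals, and then the joint of each deletion, with the end of exon 5 in capitals and the start of exon 6 in lower case.
Asxl1 exon 5 end removed by the 94-base deletion: GTGAGTggtgaaaatgatg
Asxl1 joint of the 94-base deletion: GAAGCCAGCACTtatctctggatg
Asxl1 joint of the 75-base deletion: GTGAAAATGATGtatctctggatg

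Smc1a was listed in LM8 only, with a deletion of 103 bases that the annotation called a splice acceptor change (chromosome X, position 150805930). It was in 202 of 226 and 175 of 199 reads, 88.7% pooled (85.3 to 91.6). The intron after exon 2 has 104 bases. The deletion begins at the end of exon 2 and stops 1 base before the end of the intron. The caller's phase field ties it to a second record at position 150805924, which is not in the list and deletes 104 bases. The letters of that record match the end of exon 2. The caller's score for the listed deletion (TLOD) was 22.22 on 377 alternative reads. The Asxl1, Chd8 and Kdm6a variants at high shares scored 240.07 to 902.82 on 56 to 209 alternative reads. Only 19 of the 425 Smc1a reads had a recorded orientation, against 55 to 231 reads at those sites. How many Smc1a reads lack 103 bases and how many lack 104 was not tested, so 88.7% is the share as listed. Of long deletions in annotated genes, 67.7% in MBT2 and 68.0% in LM8 had the exact length of an intron of their gene, and 1.81% and 1.79% were 1 base short of one. These shares compare length alone with any intron of the gene, so they include matches such as the 94-base Asxl1 deletion.

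Chd8 in MBT2 and Kdm6a in LM8 each had a pair of neighbouring insertions. In Chd8, 4 bases were inserted at chromosome 14, position 52442041, in 113 of 133 and 96 of 108 reads (86.7% pooled, 81.8 to 90.7), and 63 bases at position 52442043 in 113 of 130 and 96 of 108 reads (87.8% pooled, 83.0 to 91.7). In Kdm6a, 13 bases were inserted at chromosome X, position 18124204, in 38 of 42 and 31 of 36 reads (88.5% pooled, 79.2 to 94.6), and 55 bases at position 18124207 in 32 of 35 and 24 of 29 reads (87.5% pooled, 76.8 to 94.4). The caller placed both members of each pair on 1 haplotype. Joined through the reference bases between them, each pair spells part of a neighbouring exon. The joined letters are shown in the direction of the RNA, with the reference bases between the insertions in capitals.
Chd8 last 69 bases of exon 31: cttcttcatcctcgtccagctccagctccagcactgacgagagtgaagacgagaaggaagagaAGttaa
Kdm6a first 71 bases of exon 19: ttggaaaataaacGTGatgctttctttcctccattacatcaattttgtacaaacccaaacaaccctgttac

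The Chd8 letters are the last 69 of the 717 bases of exon 31 and stand directly before exon 32. The Kdm6a letters are the first 71 of the 106 bases of exon 19 and stand directly after exon 18. The annotation called the shorter insertion of each pair a splice acceptor change (Chd8) or a splice donor change (Kdm6a), and placed the longer one downstream of another transcript.

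**Figure D3:**
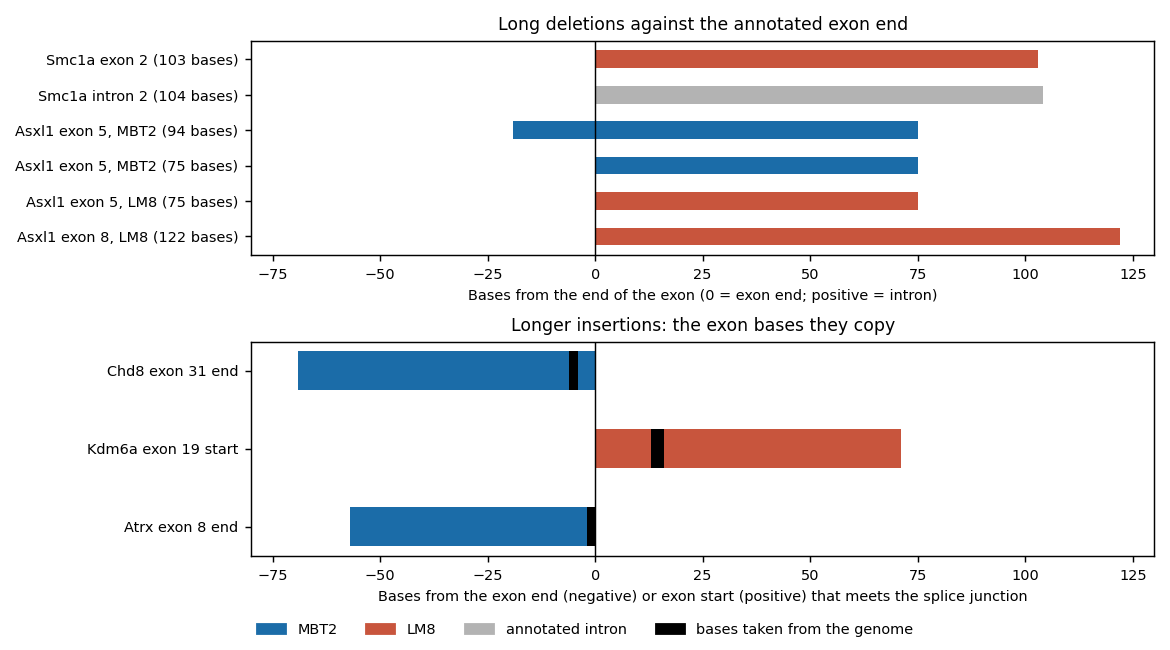
Long events of the members on a scale of bases from an exon boundary at 0. In the upper panel, bars span the deleted bases: both 75-base Asxl1 deletions start at the exon end, the 94-base one starts 19 bases before it, and the listed Smc1a deletion is 1 base shorter than the intron drawn in grey. In the lower panel, bars span the exon bases that the insertions copy, with the bases taken from the genome between or beside the insertions in black.

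Atrx had 2 long changes in MBT2 that were rare and match no annotated joint. An insertion of 55 bases (chromosome X, position 104920060) was in 5 of 112 and 5 of 125 reads, 4.22% pooled (2.04 to 7.62), with 9 of 10 alternative reads on the forward strand. Read with the AG that follows it, it spells the last 57 of the 68 bases of exon 8. It stands inside exon 9, which has 3014 bases. Read as a splice joint, it would join the end of exon 8 to a point that leaves out the first 1121 bases of exon 9. The record itself deletes no base of exon 9, and whether the reads lack those bases was not tested. None of the reference transcripts has this joint, shown here with exon 8 in capitals and exon 9 in lower case, and then exon 9 of the reference around the same point, where the capitals mark an AG.
Atrx joint in the variant: TGAACAATGTAGgtgttgactgtc
Atrx exon 9 in the reference: ttccccaattaaAGgtgttgactgtc

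A deletion of 100 bases (position 104861699) was in 1 of 180 and 3 of 182 reads of MBT2, 1.10% pooled (0.302 to 2.80). It removes bases 34 to 133 of the 195 bases of exon 30, begins with GT and ends with AG, and has the length of no annotated Atrx intron. The annotation called both Atrx changes frameshifts, as it did the 94-base deletion of Asxl1. With these, 12 of the 17 MBT2 member variants were protein-altering by annotation (missense, frameshift and splice site), against 7 of 17 in LM8. Over the whole lists 2414 of 6361 variants were protein-altering in MBT2 (37.95%), against 1938 of 5445 in LM8 (35.6%).

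Counted by gene, 6 of the 6 members listed in MBT2 had a private protein-altering variant (Stag2, Crebbp, Ncor1, Atrx, Chd8 and Asxl1). In LM8, 5 of the 8 listed members had one (Smc1a, Hdac1, Atrx, Chd8 and Kdm6a). Among all genes with a listed variant, 36.6% had such a variant in MBT2 and 32% in LM8. By substitution alone there were 2 of 6 listed members in MBT2 (Crebbp and Ncor1) and 0 of 8 in LM8. Over all listed genes the shares were 18.3% and 16.7%. Leaving out long deletions and longer insertions gave 4 members in MBT2 and 3 in LM8, and leaving out splice site effects gave 5 and 3. Shares of all listed genes were not counted with these kinds left out. The counts therefore cannot be set against 36.6% and 32%, which include these kinds. The genes dropped with splice site effects were Chd8 in MBT2 and Smc1a and Kdm6a in LM8. The Chd8 and Kdm6a letters are those of a neighbouring annotated exon, and the Smc1a deletion is 1 base short of an intron. The members were chosen with earlier results known, and a listed gene needs enough reads, so these counts stand as a description. Smc1a, Hdac1 and Kdm6a had no listed variant in MBT2, and none was listed for Crebbp in LM8, where the depth of unlisted sites is not known.

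At the 5 sites in both lists, the lines did not differ past the threshold. With Benjamini-Hochberg adjustment over the 1261 sites in both lists, Fisher's exact test (two-sided) called 92 sites (7.3%) and 0 of the 5 member sites. Without library 1 of each line it called 39 sites, and without library 2, 45. The differences, MBT2 minus LM8, were −0.14 percentage points for Ncor1 codon 322 (−5.86 to 5.36), −0.68 for Ncor1 codon 320 (−4.40 to 2.74), −0.13 for the Stag2 3′ UTR (−4.14 to 2.88) and −0.12 for Atrx codon 1166 (−4.13 to 3.81). For the 75-base Asxl1 deletion the difference was 3.82 points (−3.52 to 10.9), with an adjusted p of 0.955 in the exact test. These intervals leave room for differences of several points in either direction. The test compares the libraries of 1 list per line. It takes in only alleles called in both lines, so the private member variants were not compared between lines.

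**Figure D4:**
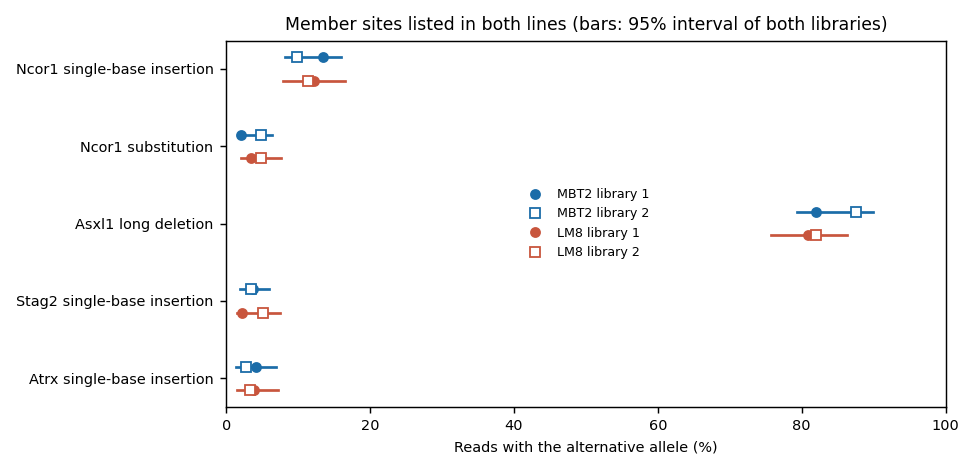
The 5 member sites listed in both lines, with MBT2 above LM8 at each site. The x axis is the percent of reads with the alternative allele, filled circles and open squares are libraries 1 and 2, and bars are exact 95% intervals of both libraries. The intervals of the lines overlap at every site, at 85.3% and 81.4% for the Asxl1 deletion and below 20% for the others.

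Between the 2 libraries of a line, the same test called 0 member variants and 0 sites of any gene in MBT2 (0%) and in LM8 (0%). At an unadjusted p under 0.05 it found 239 of 6361 MBT2 sites (3.76%) and 212 of 5445 LM8 sites (3.89%). Among them were 1 of the 17 member sites in MBT2 (Asxl1 codon 728) and 0 of 17 in LM8. The smallest p of a member in LM8 was 0.103 (Chd8 codon 1841, exact test).

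Other genes of the same pathways were counted from lists of cohesin, acetyltransferase and bromodomain, corepressor, and remodeller, demethylase and Polycomb-linked genes. Of 13 other cohesin genes, 5 were listed in MBT2 and 6 in LM8, and 3 and 1 of these had a private protein-altering substitution. Of 29 other acetyltransferase and bromodomain genes, 16 and 14 were listed, and 6 and 4 had one. Of 31 other corepressor genes 13 and 10 were listed, and 6 and 1 had one, while of 31 remodeller, demethylase and Polycomb-linked genes 15 and 16 were listed, and 2 and 1 had one. In all 4 lists the MBT2 count was the higher one, as for the members, and it was also higher over all genes. Over all listed genes, 718 of 3933 had one in MBT2 (18.3%), against 583 of 3495 in LM8 (16.7%). Whether any list differs from these shares was not tested.

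Of the private protein-altering substitutions of these genes at 10% or more, 7 were in MBT2. Nipbl, which loads cohesin onto DNA, had A2771P at 21.005% of 219 reads (15.8 to 27.0) and R814L at 15.7% of 381 reads (12.2 to 19.8). The acetyltransferase genes Kat2a and Kat2b had F178L at 32.9% of 337 reads (27.9 to 38.2) and D674N at 74.5% of 98 reads (64.7 to 82.8). Mta2, a subunit of a deacetylase and remodeller complex, had E67G at 87.5% of 40 reads (73.2 to 95.8). Kat2a thus stood at a share like those of Crebbp and Ncor1, while Kat2b and Mta2 stood above the band from 40 to 60%.

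Ncoa6, a coactivator gene, had I1731M at 30.1% of 206 reads (23.9 to 36.9) and the remodeller gene Chd5 had C1795S in all 15 reads (78.2 to 100%), both in MBT2. In LM8 the corepressor gene Rcor1 had A55T at 13.95% of 86 reads (7.42 to 23.1). No member had a protein-changing substitution in LM8 at any share.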

How the data were processed

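The deposited tables are 1 list of variants per line in variant call format 4.2, and their unit is reads per allele and library, as deposited by the authors. Per the file headers, the libraries of a line were called together with Mutect 2.2 without a normal sample, filtered with GATK 4.1.5.0 and annotated with SnpEff 5.1d (database 105, GRCm39). The submitters' processing notes name bcl2fastq 2.17.1.14, cutadapt 1.9.1, STAR 2.7.9a, GATK 4.3.0 and GRCm39. The sources used here do not give how spliced reads were handled.

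The cell line named in a library's title gave its group. Every member variant was named. From 4 lists of related genes, private protein-altering substitutions at 10% or more were named, except for a result that is not reported here. Members and lists were chosen with earlier results of these data known. Reads of both libraries were summed, a deletion counted as long from 21 bases on, and tests used a threshold of 0.05. Transcript letters came from GENCODE M21 (GRCm38), matched by transcript, codon and letters. The test between the libraries of a line was tried on simulated data. Python 3.11.15, numpy 2.4.6, scipy 1.17.1 and matplotlib 3.10.9 were used.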

Additional observations from a re-analysis of the deposited data

How the results depend on the processing

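With substitutions alone, the members with a private protein-altering variant numbered 2 in MBT2 and 0 in LM8, in place of 6 and 5. The listed members were 6 in MBT2 and 8 in LM8. Without splice site effects the LM8 count was 3. Without long deletions and longer insertions, an alternative chosen after seeing the data, it was also 3, and MBT2 had 11 member variants in place of 17. These alternatives count fewer kinds of variant by construction. Apart from substitutions alone, the share over all listed genes was not counted for them. At sites in both lists, 39 to 45 sites were called with 1 library left out per line, in place of 92, with 0 of the 5 member sites called. A test stratified by replicate number, as a replicate block, called 92 sites and 0 member sites, while deviations of same-numbered libraries had a correlation of −0.022 over 1261 sites, so the numbers gave no sign of pairing. Leaving out 1 library moved the share of 7 of the 34 member variants by over 1.5 times. In MBT2, Ncor1 codon 526 stood at 1.47% without library 1 and 6.09% without library 2, against 3.59% pooled. Without library 2, Ncor1 codon 320 stood at 2.13% and the 100-base Atrx deletion at 0.556%, against 3.52% and 1.10% pooled. In LM8, Chd8 codon 1841 stood at 7.81% without library 1 and 1.43% without library 2, against 4.48% pooled. Without library 1, Stag2 codon 1223 stood at 0.820% and the Chd8 3′ UTR substitution at 7.14%, against 1.64% and 11.5% pooled, and without library 2 the Stag2 3′ UTR insertion stood at 2.17%, against 3.70% pooled. Depth limits the rare alleles most: the lowest, the 100-base Atrx deletion of MBT2, rests on 4 reads of 362. The lists hold called sites only, so a member that is not listed was not detected and is not shown to be unchanged.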
